A study of Homo sapiens with 32 samples.

Results

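ID1, ID2, ID3, ID4, SMAD6, SMAD7, SKIL and BAMBI are genes whose transcription responds directly to SMAD proteins, and they are described here across all exposure groups of HGrC1 cells. They were chosen by gene symbol, and all 8 were found among the 18583 genes with values and passed the filter on low counts. HGrC1 is an immortalized line of human granulosa cells, the somatic cells that surround the oocyte and make steroid hormones. For the experiment, 4 separately frozen vials were each expanded and split into 4 parts that received 0.05% DMSO alone (control) or 0.01, 0.1 or 1 µM perfluorooctane sulfonate (PFOS, a persistent surfactant) for 6 or 12 weeks, with fresh PFOS at every passage. All groups, controls included, grew in 10% serum with 100 nM of a steroid, which the sample descriptions name as estradiol and the study's methods as testosterone. Poly(A) RNA was sequenced from 4 libraries in each of 8 groups, 32 in all. Libraries with the same replicate number were taken to come from the same vial of this 1 line.

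Ligands of the TGF-beta family (TGF-beta, activins, BMPs, AMH) bind pairs of serine/threonine kinase receptors that phosphorylate SMAD proteins. BMP and AMH receptors act mainly on SMAD1, SMAD5 and SMAD9, and TGF-beta and activin receptors on SMAD2 and SMAD3. Both branches share SMAD4 as a common partner. In the ovary these ligands pass between oocyte and granulosa cells and set follicle growth and steroid output. Many of the genes that SMADs switch on act as brakes: the ID proteins bind basic helix-loop-helix (bHLH) factors and keep them off DNA, SMAD6 and SMAD7 block the receptors, SKIL (also called SnoN) represses SMAD complexes, and BAMBI is a receptor without a kinase.

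The promoters of the genes that changed most often, ID1, ID2, ID3, SMAD7 and BAMBI, are shown because SMAD proteins bind short DNA words. Each runs from 250 bases before to 50 bases after the transcription start in RefSeq (GRCh38.p14), 5′ to 3′ on the gene's own strand. Capitals mark GTCT and its reverse complement AGAC, the word read by SMAD3 and SMAD4, and GGCGCC, a GC-rich word read by SMAD1 and SMAD5. ID1 lies at chr20:31605039-31605338 (plus strand), ID2 at chr2:8681806-8682105 (plus), ID3 at chr1:23559452-23559751 (minus), SMAD7 at chr18:48950916-48951215 (minus, 1 of 3 promoters in the table) and BAMBI at chr10:28677271-28677570 (plus).
ID1: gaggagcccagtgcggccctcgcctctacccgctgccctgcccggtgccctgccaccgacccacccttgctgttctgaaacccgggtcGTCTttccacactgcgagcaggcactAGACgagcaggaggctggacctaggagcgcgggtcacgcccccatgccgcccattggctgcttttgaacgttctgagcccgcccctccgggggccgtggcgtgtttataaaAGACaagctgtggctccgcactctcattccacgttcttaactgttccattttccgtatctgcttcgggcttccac
ID2: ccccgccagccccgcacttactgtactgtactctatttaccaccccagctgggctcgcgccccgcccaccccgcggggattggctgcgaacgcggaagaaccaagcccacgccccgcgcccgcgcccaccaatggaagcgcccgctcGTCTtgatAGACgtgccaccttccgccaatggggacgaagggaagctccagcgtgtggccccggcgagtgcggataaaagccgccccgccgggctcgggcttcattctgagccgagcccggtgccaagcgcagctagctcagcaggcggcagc
ID3: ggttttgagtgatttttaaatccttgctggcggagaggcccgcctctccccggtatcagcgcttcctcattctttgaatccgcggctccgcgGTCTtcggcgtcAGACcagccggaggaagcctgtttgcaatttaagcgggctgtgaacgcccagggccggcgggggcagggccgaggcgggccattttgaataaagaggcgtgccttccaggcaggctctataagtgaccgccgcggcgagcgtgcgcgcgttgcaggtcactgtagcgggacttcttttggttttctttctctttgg
SMAD7: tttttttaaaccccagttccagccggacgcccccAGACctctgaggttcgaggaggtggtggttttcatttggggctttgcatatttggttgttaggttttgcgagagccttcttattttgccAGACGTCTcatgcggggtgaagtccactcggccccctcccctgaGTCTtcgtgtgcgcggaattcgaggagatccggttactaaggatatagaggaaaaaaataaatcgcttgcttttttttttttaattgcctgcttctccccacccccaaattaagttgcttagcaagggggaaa
BAMBI: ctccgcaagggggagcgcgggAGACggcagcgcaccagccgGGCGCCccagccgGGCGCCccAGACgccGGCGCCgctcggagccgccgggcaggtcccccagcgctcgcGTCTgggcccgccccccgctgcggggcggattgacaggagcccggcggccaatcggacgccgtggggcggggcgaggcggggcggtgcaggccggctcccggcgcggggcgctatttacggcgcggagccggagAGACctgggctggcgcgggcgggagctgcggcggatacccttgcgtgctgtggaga
GTCT or AGAC occurred 3 times in the ID1 promoter, 2 times in ID2 and in ID3, and 4 times in SMAD7 and in BAMBI. The word is common: 84% of all 35116 promoters of the same length held it on either strand, with a median of 2 per promoter. Its longer form CAGAC or GTCTG, which contains the shorter word, was in the ID3, ID4, SMAD7, SKIL and BAMBI promoters and in 45.26% of all promoters. GGCGCC occurred 3 times in the BAMBI promoter, once in that of SKIL, and in 19.22% of all promoters. The palindrome GTCTAGAC, which joins both short words, occurred once in the SMAD6 promoter, as in 0.2022% of all promoters. The BMP element of GGCGCC followed 5 bases on by GTCT was in none of the 8 promoters and in 0.1025% of all. These matches describe the letters in 1 window of 300 bases per gene and do not locate bound sites. Sequence outside these windows, the other promoters of SMAD7 included, is not described here.

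Library totals lay between 17907057 and 18553350 estimated counts, so depth was nearly equal. Of 18 granulosa markers, 16 had values and 13 reached 10 counts in some library. KRT8, KRT18, WT1, GJA1, FST and AMH were the highest, with AMH the lowest of these at 10.2 to 17.6 TPM. Below them were HSD17B1 at 3.53 to 7.39 TPM, STAR at 0.58 to 2.95 and CYP11A1 at 0.11 to 2.58. INHA was at 0.63 to 2.36 TPM, FOXL2 at 0.32 to 1.19, NR5A2 at 0.05 to 0.6 and NR5A1 at 0 to 0.42. AMHR2 never exceeded 3 counts, HSD3B2 2 counts and CYP19A1 (aromatase) 1 count. FSHR and LHCGR, the gonadotropin receptors, had no values. Summed granulosa marker counts ranged from 90785 to 122060 and were mostly KRT8 and KRT18. The theca list summed to at most 5 counts. Of the oocyte list only ZP3 reached 10 counts, with DDX4, BMP15 and DAZL at 0, and the leukocyte sum came from CD68 and CD14, with CD3E at 0 and PTPRC at no more than 8 counts. The epithelial sum of 23032 to 35141 counts was mostly KRT19. A set of 6 liver transcripts (AFP, AHSG, ALB, APOB, AMBP, GPC3) separated libraries within 6 weeks: it summed to 0 to 1 counts in the control and 0.01 µM libraries, whereas the 0.1 µM libraries held 89 to 141 counts and the 1 µM libraries 88 to 115. At 12 weeks it summed to 72 to 174 counts in every library but control replicate 3, which had 919.

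Measured per transcript length, ID3 was the most abundant of the 8 genes and SKIL the least. Over 32 libraries the mean level was 446 ± 54.1 TPM (± SD; transcripts in every 1000000, corrected for length) for ID3, 294 ± 52.2 for ID1 and 182 ± 27.2 for ID2, the inhibitors of bHLH factors. BAMBI averaged 108 ± 18.3 TPM and ID4 74.9 ± 4.65 TPM. SMAD7 averaged 31.1 ± 5.22 TPM, SMAD6 30.0 ± 2.42 TPM and SKIL 7.95 ± 0.756 TPM. Among all 18583 genes these means ranked from 280 for ID3 to 8443 for SKIL. The order was nearly fixed from library to library: each gene exceeded the next in 31 or 32 of 32 libraries, with the exception of SMAD7 and SMAD6, where SMAD7 was higher in 20 of 32. The TPM ranges of these inhibitory SMADs overlapped in 6 of 8 groups. SMAD7 lay above SMAD6 without overlap at 6 weeks with 0.01 µM PFOS (34.6 to 44.6 against 28.9 to 33.7 TPM), and below it at 12 weeks with 0.1 µM (24.1 to 26.9 against 28.3 to 31.2 TPM). By group means SMAD6 also stood above SMAD7 at 12 weeks with 1 µM.

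**Figure D1:**
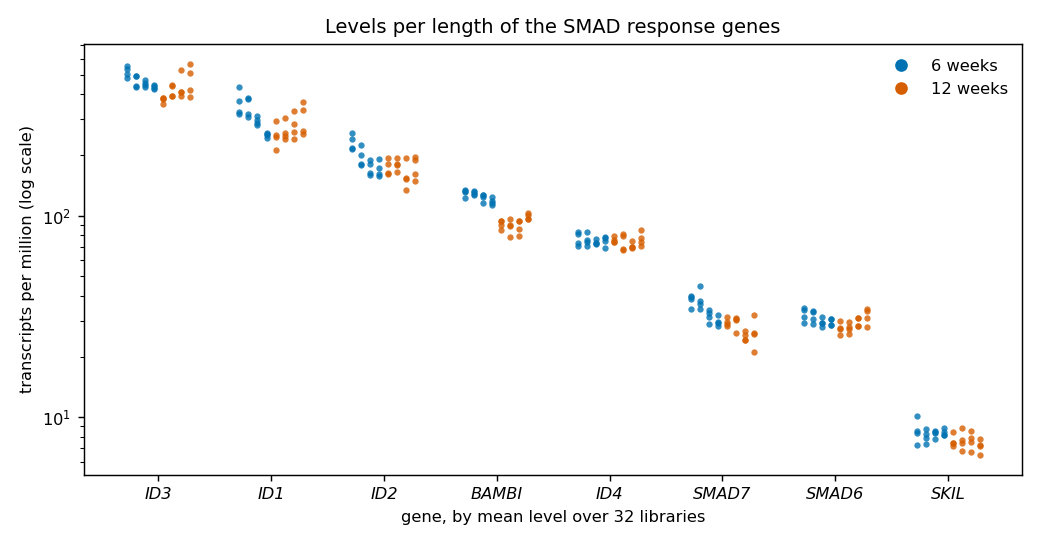
Level of each gene in TPM on a log axis, 1 point per library, with the 8 groups side by side from control to 1 µM at 6 weeks (blue) and then at 12 weeks (orange). ID3 is highest with a mean of 446, SKIL lowest with 7.95, and the SMAD7 and SMAD6 points overlap.

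After 6 weeks, ID2, ID3 and SMAD7 transcripts were lower at 0.1 µM PFOS than in control cells, and ID3 and SMAD7 were lower at 1 µM as well, each by less than the 2-fold change the study required. Levels from here on are CPM (counts in every 1000000) scaled by edgeR's TMM factors, given in the order of vials 1 to 4, and a call is an adjusted p at or under 0.05 over all genes tested in edgeR's quasi-likelihood test. Each comparison with control at one time used the same 4 control libraries, so the values for the 3 doses are not independent of each other.

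ID1 encodes the best known BMP-responsive inhibitor of bHLH factors. In control cells at 6 weeks its level was 204, 155, 175 and 149 CPM, against 178, 178, 155 and 144 CPM at 0.01 µM, 135, 148, 143 and 141 CPM at 0.1 µM and 123, 125, 119 and 128 CPM at 1 µM. Every library at 0.1 and 1 µM lay below every control library, while those at 0.01 µM were interleaved with them. The log2 fold change was -0.06 ± 0.09 (SE) at 0.01 µM, -0.27 ± 0.09 at 0.1 µM and -0.47 ± 0.09 at 1 µM, and the adjusted p missed the threshold at each dose (0.884, 0.106 and 0.0600). DESeq2 gave an adjusted p of 1.90e-04 for the 1 µM value, with the same fold change of -0.47. Over all genes DESeq2 called 129 at this dose, against 36 in edgeR.

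ID2 encodes a second member of the same family. Control levels were 170.0, 144, 160.1 and 143 CPM, and those at 0.01, 0.1 and 1 µM were 148, 133, 123 and 118 CPM, then 108, 125, 110.0 and 125 CPM, then 119, 131, 108 and 114 CPM. All 8 libraries at the upper doses lay below all controls, and at 0.01 µM each vial was below its own control although the ranges overlapped. ID2 fell by 0.40 ± 0.09 on the log2 scale at 0.1 µM (adjusted p = 0.0229 in edgeR). At 1 µM the fold change was -0.39 ± 0.09 with adjusted p = 0.0819 in edgeR and 7.18e-05 in DESeq2, and at 0.01 µM it was -0.24 ± 0.08 with adjusted p = 0.462. The 0.1 µM call was lost without vial 1 (edgeR adjusted p = 0.0785), vial 3 (0.178) or vial 4 (0.0758), and the 1 µM value became a call without vial 2 (0.0419).

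ID3 changed by less but varied little between vials. Its level was 239, 214, 235 and 220.1 CPM in control cells, 216, 214, 197 and 192 CPM at 0.01 µM, 193, 208, 198 and 207 CPM at 0.1 µM and 201, 199, 196 and 198 CPM at 1 µM. Again the upper doses did not overlap the controls. Relative to control, ID3 fell by 0.18 ± 0.04 (log2) at the middle dose and by 0.20 ± 0.04 at the top dose (edgeR adjusted p = 0.0177 and 0.0241), whereas 0.01 µM gave -0.15 ± 0.04 with adjusted p = 0.349. With vial 1 left out the 0.1 µM value no longer passed (0.126), nor did it without vial 3 (0.193); the 1 µM value did not pass without vial 1 (0.110), vial 3 (0.417) or vial 4 (0.0758). RefSeq places a long non-coding gene, LOC124903876 (chr1:23539883-23573700), over ID3 (chr1:23557926-23559501); the libraries kept strand, the strand setting of the counting was not given in the sources used here, and that gene had no values of its own. No other of the 8 genes overlapped a RefSeq gene.

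ID4, the fourth ID gene, stayed between 162 and 194 CPM in all 16 libraries at 6 weeks, and its fold changes against control were between -0.04 and 0.02, none of them called. Its groups overlapped at every dose.

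SMAD7 encodes an inhibitory SMAD that sends TGF-beta receptors for degradation. It measured 64.2, 58.4, 66.7 and 66.6 CPM in control cells, 73.3, 63.9, 57.9 and 61.3 CPM at 0.01 µM, 53.2, 56.1, 49.6 and 54.6 CPM at 0.1 µM and 54.1, 51.0, 50.7 and 52.7 CPM at 1 µM. The 2 upper doses lay below all control libraries and below all those at 0.01 µM, and 0.01 µM overlapped the control. SMAD7 fell by 0.26 ± 0.06 on the log2 scale at the middle dose and by 0.30 ± 0.06 at the top dose (edgeR adjusted p = 0.0173 and 0.0230), and was 0.00 ± 0.06 at 0.01 µM. Both calls were lost without vial 3 (0.157 at 0.1 µM, 0.208 at 1 µM) or vial 4 (0.145 and 0.297). Set directly against 0.01 µM, the 0.1 µM libraries were at -0.27 ± 0.06, with adjusted p = 0.0516 in edgeR, 0.0309 with the vial as a block and 0.00989 in DESeq2.

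SMAD6, which inhibits mainly the BMP branch, was between 81.0 and 93.9 CPM in control cells and between 78.6 and 85.3 CPM at 0.1 µM. These ranges overlapped, the fold change was -0.13 ± 0.05 (adjusted p = 0.132), and without vial 2 it became a call at -0.20 (0.0239). At 1 µM SMAD6 was at -0.09 ± 0.05 and at 0.01 µM at -0.04 ± 0.05. SKIL, a co-repressor of SMAD complexes, spanned 32.5 to 45.7 CPM in control cells, more than in any PFOS group, with fold changes from -0.08 to 0.03 and no call. BAMBI, the decoy receptor, was at 112 to 122 CPM in control cells, 110.0 to 118 CPM at 0.1 µM and 109 to 117 CPM at 1 µM, with fold changes of -0.05 ± 0.04 and -0.08 ± 0.04 (adjusted p = 0.403 and 0.299).

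In all, 3 of the 8 genes were called at 0.1 µM, all lower, where 4.24% of 12836 genes were called in either direction. All 8 fold changes were below 0, with a median of -0.15 against 0.00 for all genes tested. For 4 genes (ID1, ID2, ID3, SMAD7) the 0.1 µM and control ranges did not overlap, against 12.2% of all genes. At 1 µM 2 of 8 were called, both lower, against 0.28% of genes, the same 4 genes did not overlap, against 6.85%, and the median was -0.14. With all 32 libraries in 1 fit no call was left at either dose. The edgeR adjusted p was 0.0724 for ID2, 0.333 for ID3 and 0.0947 for SMAD7 at 0.1 µM. At 1 µM it was 0.502 for ID3 and 0.239 for SMAD7. The fold changes in that fit were -0.40, -0.17 and -0.26 at 0.1 µM, and -0.20 and -0.30 at 1 µM. Of all genes that fit called 49 at 0.1 µM and 5 at 1 µM, against 544 and 36. Leaving out vials 1, 2, 3 and 4 in turn left 128, 570, 22 and 77 genes called in all at 0.1 µM. At 1 µM it left 24, 178, 12 and 16. At 0.01 µM edgeR called 0 of 8 and 0.0% of genes, with 1232 of 12836 genes at an unadjusted p under 0.05 (ID2 and ID3 among them) and 1 gene called by DESeq2; no range stood apart, against 3.93% of genes. The 6-week groups whose ID1, ID2, ID3 and SMAD7 ranges lay below control without overlap were those with 88 to 141 counts of liver transcripts. ID2 and ID3 were also below control in 4 of 4 vials at 0.01 µM, where these transcripts summed to 0 to 1 counts. In that group ID1 was lower in 3 vials and SMAD7 in 2. The part of the liver transcripts in the result was not tested. In this bulk RNA, fewer cells with a transcript and less of it per cell cannot be told apart.

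**Figure D2:**
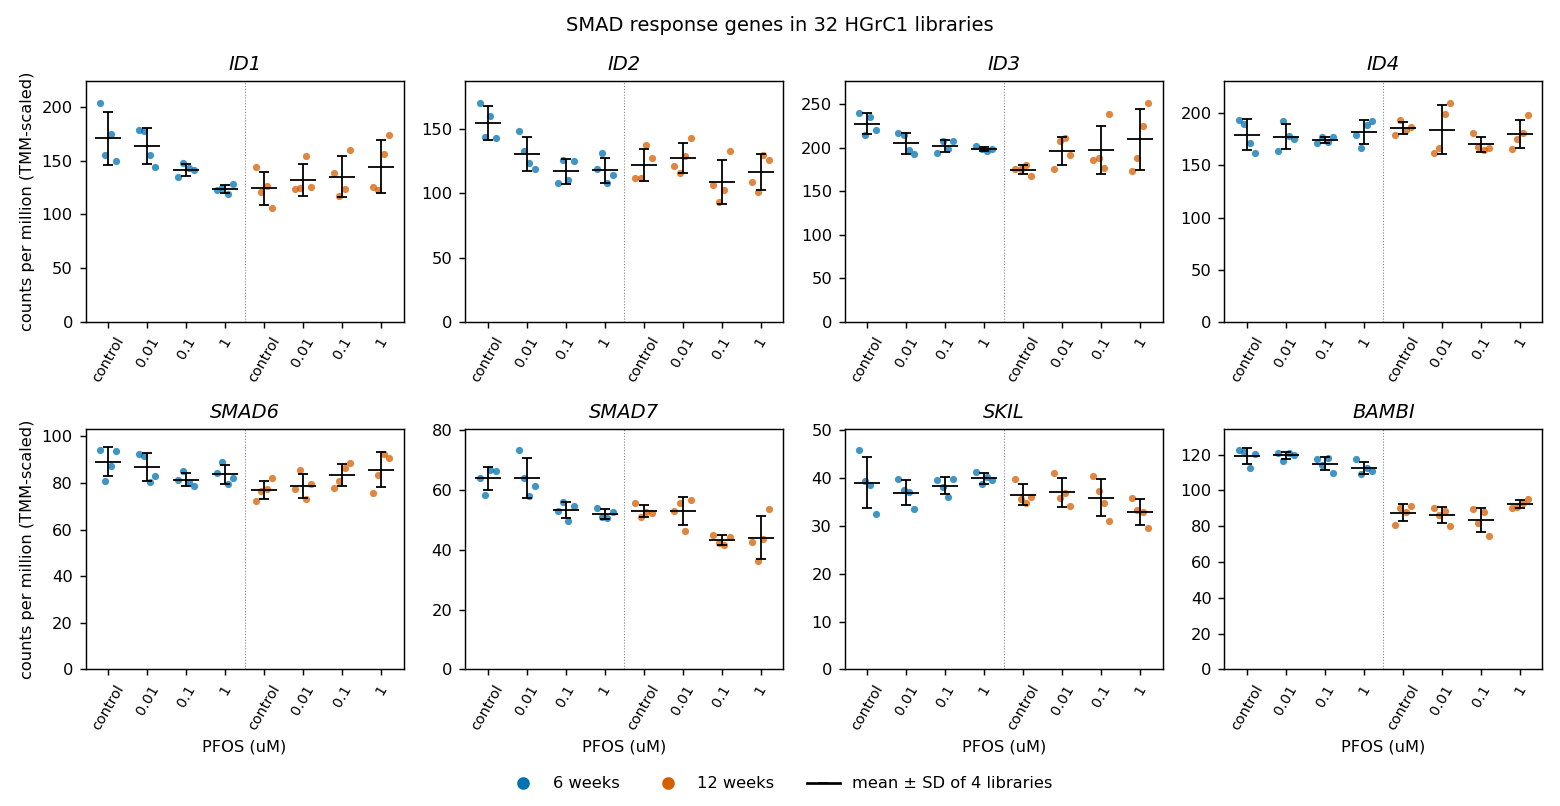
TMM-scaled CPM of the 8 genes in each library, 1 panel per gene with an axis from 0, for control and 3 PFOS doses at 6 weeks (blue) and 12 weeks (orange); black bars are the mean ± SD of 4 libraries. At 6 weeks ID1 steps from 171 in control to 124 at 1 µM, and BAMBI drops from 119 at 6 weeks to 87.6 at 12 weeks in control cells.

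None of the 8 genes was called between neighbouring PFOS doses at 6 weeks. From 0.01 to 0.1 µM edgeR called 0 of 8 against 0.273% of genes, with ID1 and SMAD7 at an unadjusted p under 0.05, and DESeq2 called SMAD7, the 1 gene of 8 with ranges that did not overlap, against 7.21% of genes. From 0.1 to 1 µM edgeR called 0 of 8 against 0.0857% of genes, with 0 of 8 at an unadjusted p under 0.05 and 0 of 8 called by DESeq2. In that step the 4 ID1 libraries at 1 µM were below all 4 at 0.1 µM, the 1 case of such ranges among the 8 against 4.32% of genes, with a fold change of -0.20 ± 0.09 and an adjusted p of 0.788, or 0.0242 when only those 8 libraries were fitted. Liver transcripts were present at like sums in both groups of this step.

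After 12 weeks no gene of the 8 was called at any dose. At 0.01 µM edgeR called 0.0% of 12742 genes (1080 at an unadjusted p under 0.05, none of them among the 8, and 0 called by DESeq2), at 0.1 µM 1.07% and at 1 µM 0.22%. The median fold change over the 8 genes was 0.02, -0.05 and 0.01 from the lowest to the highest dose. DESeq2 called 0 of the 8 at each dose as well, with 282 genes called in all at 0.1 µM and 89 at 1 µM. Without vial 3, and with it the control library rich in liver transcripts, edgeR also called 0 of 8. It then called 4 of all genes at 0.1 µM and 9 at 1 µM. At an unadjusted p under 0.05 stood SMAD7 at 0.1 µM, and ID3, SMAD6 and SMAD7 at 1 µM.

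Of the 8 genes, SMAD7 had the lowest fold change at 0.1 and 1 µM. It measured 55.7, 51.2, 52.7 and 52.4 CPM in control cells, 52.9, 55.8, 46.3 and 56.8 CPM at 0.01 µM, 45.2, 42.3, 41.8 and 44.4 CPM at 0.1 µM and 42.8, 36.3, 43.7 and 53.8 CPM at 1 µM. The 0.1 µM libraries lay below all controls, whereas at 1 µM vial 4 was level with the controls and the other 3 were below. The fold change was -0.29 ± 0.08 at 0.1 µM (edgeR adjusted p = 0.102) and -0.27 ± 0.08 at 1 µM (0.288). The 0.1 µM value was a call with all 32 libraries in 1 fit (0.0303) and with only its 8 libraries (0.0158). SMAD7 was the 1 gene of 8 whose ranges did not overlap at 0.1 µM, against 8.33% of genes; at 0.01 and 1 µM there was none, against 2.81% and 6.61%. From 0.01 to 0.1 µM edgeR called 0 of 8 and 0.0% of genes (1891 at an unadjusted p under 0.05), and DESeq2 called 145 genes, none of the 8. SMAD7 was at -0.28 ± 0.08 in that step with adjusted p = 0.164, and its ranges did not overlap, against 5.82% of genes. With all 32 libraries in 1 fit SMAD7 was called there (0.0375), with 415 genes in all.

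The values of ID3 at 12 weeks had a larger SD at each PFOS dose than in control cells, and those of ID1 at 0.1 and 1 µM. ID3 measured 176, 175, 180.4 and 167 CPM in control cells, 175, 208, 211 and 192 CPM at 0.01 µM, 186, 188, 176 and 238 CPM at 0.1 µM and 174, 188, 224 and 251 CPM at 1 µM. Vials 3 and 4 were well above control at 1 µM, vial 1 was not, and the ranges overlapped at every dose. The ID3 fold change was 0.17 ± 0.11, 0.17 ± 0.11 and 0.26 ± 0.11 from the lowest to the highest dose, with edgeR adjusted p = 0.688, 0.467 and 0.520. ID1 measured 144, 121, 126 and 106 CPM in control cells and 126, 122, 156 and 174 CPM at 1 µM, where the same vials 3 and 4 were highest. Its fold change at 1 µM was 0.22 ± 0.13 (adjusted p = 0.662). Over all genes, the 12-week libraries of vials 1 and 2 were close to each other, as were those of vials 3 and 4. At 1 µM the chi-square per degree of freedom was 2.80 and 3.08 within these pairs and 7.86 to 9.66 across them. In control cells it was 5.00 and 4.63 within and 8.59 to 10.2 across. The part of this split in the ID1 and ID3 values was not tested.

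The other genes gave no call at 12 weeks. ID2 ranged from 112 to 137 CPM in control cells, 93.0 to 132 CPM at 0.1 µM and 101 to 129.7 CPM at 1 µM, with fold changes of -0.17 ± 0.11 and -0.08 ± 0.11. SMAD6 was at 0.11 ± 0.06 at 0.1 µM and 0.15 ± 0.06 at 1 µM (edgeR adjusted p = 0.406 and 0.520), with overlapping ranges. ID4 was at -0.13 ± 0.07 and SKIL at -0.03 ± 0.08 at 0.1 µM, against -0.05 ± 0.07 and -0.15 ± 0.08 at 1 µM. BAMBI at 1 µM, 90.1 to 95.3 CPM, did not overlap the 74.8 to 89.7 CPM at 0.1 µM, the 1 such gene of 8 against 6.1% of genes; that step had a fold change of 0.14 ± 0.06 and adjusted p = 0.629, and edgeR called 0 of 8 and 0.0% of genes in it (984 at an unadjusted p under 0.05, BAMBI the only one of the 8, and 0 called by DESeq2).

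**Figure D3:**
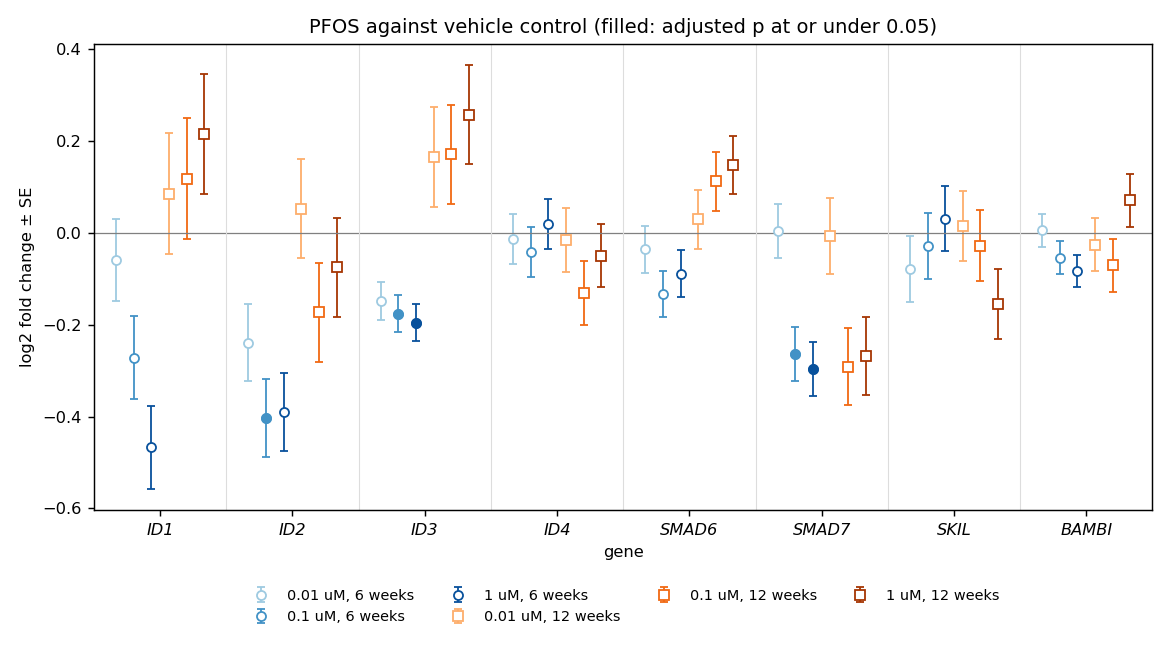
Log2 fold change ± SE of each gene at 3 PFOS doses against the control of the same time, from edgeR, at 6 weeks (blue circles) and 12 weeks (orange squares); filled markers are calls. The filled markers are ID2, ID3 and SMAD7 at 0.1 µM and ID3 and SMAD7 at 1 µM, all at 6 weeks, and the largest distance from 0 is -0.47 for ID1 at 1 µM.

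Between 6 and 12 weeks of culture, 6 SMAD response genes were called lower in control cells, and BAMBI and SMAD7 were called lower in all 4 groups. In control cells 6 of 8 were called, all lower, against 36.6% of 12988 genes, and 5 had ranges that did not overlap, against 31.3%. The calls numbered 3 of 8 at 0.01 µM (42.7% of genes), 2 of 8 at 0.1 µM (40.3%) and 3 of 8 at 1 µM (30.1%), each of them lower at 12 weeks. Ranges did not overlap for 2 genes at each dose, against 33.2%, 39.7% and 30.4% of genes. At the PFOS doses the share of the 8 genes called was near or below that of all genes. At 1 µM 5 of the 8 fold changes were below 0, against 48.71% of all genes. The median over the 8 genes was -0.30 in control cells and -0.10, -0.08 and -0.02 from the lowest to the highest dose, against 0.00 to 0.01 for all genes. The labels give no date of extraction or sequencing, so time in culture and any difference in handling between the 6-week and 12-week libraries cannot be told apart. Without vial 3, whose 12-week control library held the 919 liver counts, the same 6 genes were called in control cells.

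BAMBI changed most clearly with time. It measured 122, 121, 112 and 121 CPM at 6 weeks and 80.7, 90.2, 87.9 and 91.5 CPM at 12 weeks in control cells. All 16 libraries at 12 weeks, 74.8 to 95.3 CPM, lay below all 16 at 6 weeks, 109 to 122 CPM. BAMBI fell by 0.44 ± 0.05 on the log2 scale in control cells (edgeR adjusted p = 4.29e-09), by 0.47 ± 0.05 at 0.01 µM (1.07e-09), by 0.46 ± 0.05 at 0.1 µM (1.52e-09) and by 0.29 ± 0.05 at 1 µM (1.50e-05). These 4 calls held in every alternative run.

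SMAD7 fell with time by 0.27 ± 0.08 in control cells, 0.28 ± 0.08 at 0.01 µM, 0.30 ± 0.08 at 0.1 µM and 0.24 ± 0.08 at 1 µM on the log2 scale (edgeR adjusted p = 0.00582, 0.00405, 0.00288 and 0.0203). Its 12-week libraries were below the 6-week ones without overlap in the first 3 of these groups, and in 3 of 4 vials at 1 µM. Leaving out vial 1 cost the 0.01 µM call (0.0851), and the 1 µM call was lost without vial 1 (0.110), vial 2 (0.147) or vial 3 (0.0548) and with only its 8 libraries (0.0806). SMAD6 fell in control cells by 0.21 ± 0.06 (0.00586), from 81.0 to 93.9 CPM at 6 weeks to 72.3 to 82.0 CPM at 12 weeks; without vial 1 that call was lost (0.0740), and at 1 µM the value was 0.03 ± 0.06.

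Among the ID genes, ID1, ID2 and ID3 fell with time in control cells. ID3 went from 214 to 239 CPM at 6 weeks to 167 to 180.4 CPM at 12 weeks, and fell by 0.38 ± 0.09 on the log2 scale (adjusted p = 9.80e-04). ID1 fell by 0.46 ± 0.12 (0.00339) and ID2 by 0.34 ± 0.10 (0.0111), both without overlap; the ID2 call was lost without vial 1 (0.152). At 0.01 µM only ID1 of these 3 was called, having fallen by 0.31 ± 0.12 (0.0349), a call lost without vial 1 (0.166) or vial 2 (0.200) and without the filter on low counts (0.0502). At 1 µM the values were 0.23 ± 0.12 for ID1, -0.02 ± 0.10 for ID2 and 0.08 ± 0.09 for ID3, none of them called. ID4 was between -0.04 and 0.05 in all 4 groups. SKIL fell at 1 µM by 0.28 ± 0.08 (0.00671), from 38.6 to 41.1 CPM to 29.4 to 35.8 CPM, a call lost without vial 3 (0.0688), and in the other groups its value was between -0.10 and 0.00.

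**Figure D4:**
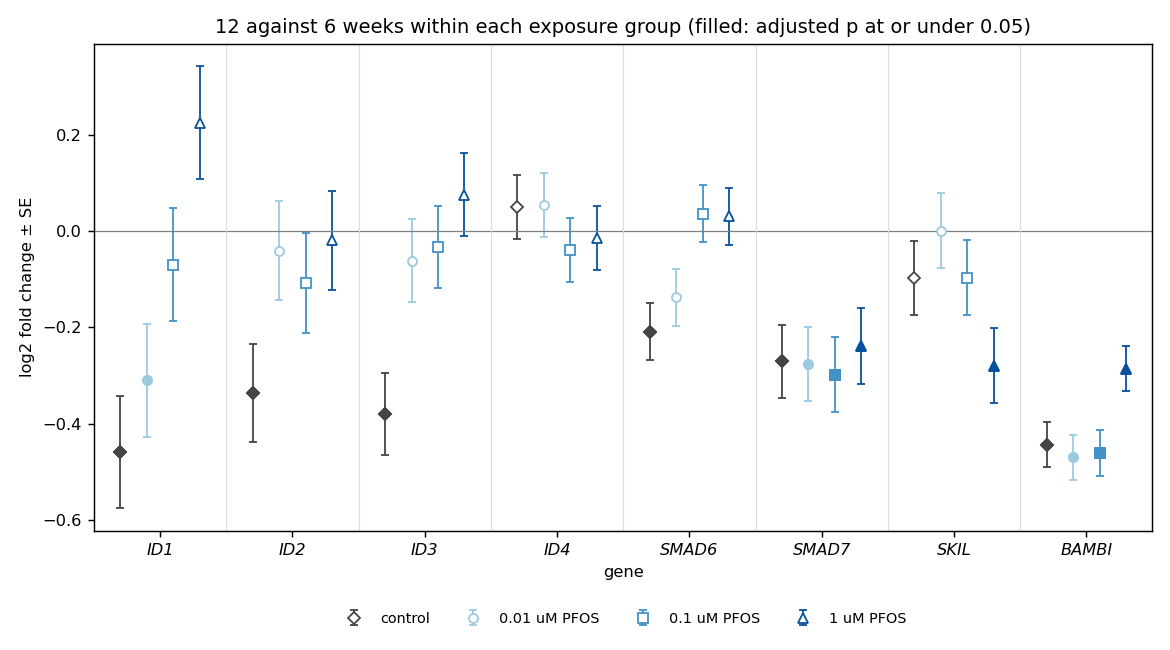
Log2 fold change ± SE of each gene at 12 weeks against 6 weeks within each exposure group, from edgeR; filled markers are calls. BAMBI and SMAD7 are filled in all 4 groups, while ID2, ID3 and SMAD6 are filled in control cells alone and ID1 in control cells and at 0.01 µM.

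The control libraries at 6 weeks and at 12 weeks enter both kinds of comparison, so the difference between times in the PFOS effect was tested directly; the same contrast is the difference between a dose and control in the change with time. EdgeR called 0 of 8 genes at each dose. At 0.01 µM 0.0% of 12988 genes were called, with 972 at an unadjusted p under 0.05 (ID2 and ID3 among them) and 2 called by DESeq2, none of the 8. At 0.1 µM 0.208% of genes were called, with ID1, ID3 and SMAD6 at an unadjusted p under 0.05 and none of the 8 called by DESeq2. At 1 µM 0.123% of genes were called, with ID1, ID2, ID3, SMAD6 and BAMBI at an unadjusted p under 0.05.

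ID1 had the largest of these differences: its log2 fold change against control at 1 µM was higher at 12 weeks than at 6 weeks by 0.69 ± 0.17, with adjusted p = 0.0983 in edgeR and 0.0107 in DESeq2. For ID3 the difference at 1 µM was 0.46 ± 0.12 (0.139 in edgeR, 0.0145 in DESeq2), and for SMAD6 it was 0.24 ± 0.08 (0.242). SMAD7 had values near 0 at the 3 doses, -0.01 ± 0.11, -0.03 ± 0.11 and 0.03 ± 0.11. So a change of the PFOS effect on ID1 and ID3 between times was called by 1 of the 2 tools, and none was called for SMAD7 by either.

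Over the 32 libraries ID1 and ID3 varied together more than any other pair of the 8 genes. Their log2 levels had a Pearson r of 0.798 and a Spearman rho of 0.760, and within groups, after each group's mean was taken out, r was 0.795. The next highest pairs joined an ID gene with an inhibitory SMAD. ID2 with SMAD7 had r of 0.700 and ID3 with SMAD6 0.682 (0.469 and 0.536 within groups). ID1 with ID2 and ID2 with ID3 had r of 0.653 and 0.606 (0.617 and 0.651 within groups). BAMBI with SMAD7 had r of 0.612 over all libraries and -0.109 within groups, and the r of ID4 and SKIL with ID1, ID2 and ID3 was from -0.140 to 0.232 over all libraries and from -0.331 to 0.365 within groups. Points share vials, exposure groups and scaling, so these values are descriptions. ID1, ID2 and ID3 each hold GTCT or AGAC in the promoters printed above, as most promoters do.

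**Figure D5:**
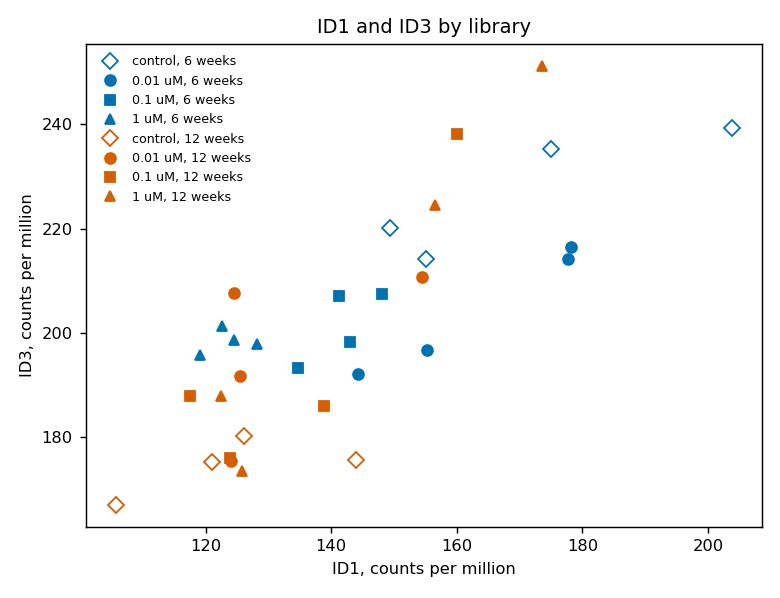
ID3 against ID1 in CPM, 1 point per library, with open diamonds for control and filled circles, squares and triangles for 0.01, 0.1 and 1 µM PFOS, at 6 weeks (blue) and 12 weeks (orange). Libraries high in ID1 are high in ID3 (r = 0.798, n = 32), and the axes do not start at 0.

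Among all genes that passed the filter on 32 libraries, those most like each member in their log2 levels were named, with no claim of shared control. For ID1 they were ID3, LRRC42 (0.727) and BAG3 (0.705), and for ID3 they were SAMD11 (0.847), ID1 and the creatine transporter SLC6A8 (0.751). ID2 was most like TPD52L2 (0.816), LRRC42 (0.773) and the actin-binding TAGLN (0.763). SMAD7 was most like MGAT1 (0.796), the homeobox gene SIX2 (0.791) and VCP (0.780), and SMAD6 most like CRIM1 (0.751), ATAD3B (0.726) and NCLN (0.722). BAMBI had the closest partners, ABCC3 (0.963), DEPP1 (0.962) and ADGRG1 (0.961), although its own levels fell into separate ranges at 6 and 12 weeks, which raises such an r. ID4 (HADHB 0.687, BRI3 0.642, ECI1 0.634) and SKIL (SPRY4 0.739, CPEB4 0.720, RGN 0.708) had weaker ones.

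Calls against control in the rest of the pathway are given by list. Over all genes 4.24% were called at 6 weeks and 0.1 µM, and 0.28% at 1 µM. At 6 weeks and 0.1 µM, 2 of 16 tested ligand genes fell, INHBB, an activin subunit (by 0.51 ± 0.13 on the log2 scale, adjusted p = 0.0305), and BMP2 (by 0.59 ± 0.16, 0.0336). Of 13 receptors 1 rose, the activin receptor ACVR2B (0.42 ± 0.12, 0.0474), and of 13 extracellular antagonists 1 fell, FSTL3, which binds activin (by 0.35 ± 0.07, 0.0207). None of the 6 receptor-regulated and common SMADs, 27 intracellular SMAD regulators or 5 bHLH partners was called. Of 21 other target genes 3 rose and 2 fell. CCN2, a matricellular growth regulator, rose by 0.26 ± 0.05 (0.0118), the kinase inhibitor CDKN2B by 0.13 ± 0.03 (0.0309) and HES1 by 0.13 ± 0.04 (0.0470). The called target genes thus went both ways at this dose: CCN2, CDKN2B and HES1 rose, while 2 other targets, ID2, ID3 and SMAD7 fell. The median log2 fold change over the 21 other targets, which join TGF-beta and BMP targets, was -0.07. At 1 µM CCN2 was the only call in these lists (0.35 ± 0.05, 0.00173), and at 0.01 µM there was none at either time.

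At 12 weeks the calls in these lists were MYC (-0.46 ± 0.06, adjusted p = 7.78e-04) and the cell cycle inhibitor CDKN1A (-0.56 ± 0.11, 0.0288), both at 0.1 µM and both among 22 other targets tested. At that dose and time 1.07% of all genes were called. For MYC the 0.1 µM effect differed between 12 and 6 weeks by -0.45 ± 0.08 (edgeR adjusted p = 0.00516).

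With time, many pathway genes moved, as did 36.6% of all genes in control cells. There, 5 of 17 ligands fell and 1 rose, 7 of 13 receptors fell and 1 rose, and 8 of 14 antagonists fell and 1 rose. Of 22 other targets 7 fell and 2 rose. The 27 intracellular SMAD regulators went both ways, with 4 lower and 5 higher, and 1 of 5 bHLH partners rose. None of the 6 receptor-regulated and common SMADs was called. BMP2 fell by 1.71 ± 0.20 on the log2 scale (edgeR adjusted p = 2.09e-08), from 5.14 to 1.57 CPM, and BMP4 by 0.66 ± 0.12 (1.30e-04). The co-receptor ENG fell by 1.71 ± 0.19 (6.29e-08) and TGFBR1 by 0.69 ± 0.09 (5.55e-07). Of the target genes, fibronectin FN1 fell by 1.23 ± 0.08 (2.79e-12) and TGFBI by 1.24 ± 0.09 (1.47e-11). These genes were named for their low adjusted p, so their sizes do not stand for their lists. In control cells the median log2 fold change was -0.30 over the 8 SMAD response genes. It was -0.13 over ligands, -0.29 over receptors, -0.45 over antagonists and -0.0008 over other targets. ENG, FN1 and TGFBI also fell at each PFOS dose, FN1 by 0.88 ± 0.08 at 1 µM. Summed leukocyte markers went from 494 to 659 counts at 6 weeks to 299 to 508 at 12 weeks and endothelial markers from 158 to 251 to 63 to 145, mostly CD14, CD68 and KDR; their part in the result was not tested. Liver transcripts went from 0 to 1 counts to 81 to 919 in control cells between the times, and at the upper doses they were at 88 to 141 counts at 6 weeks and 92 to 174 at 12 weeks.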

How the data were processed

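The authors sequenced stranded poly(A) libraries on a DNBSEQ instrument. The submitters' processing notes name HISAT2 2.0.4, Bowtie2 2.2.5, RSEM 1.2.8 and the build GRCh38.p14. The authors deposited RSEM estimated counts and TPM (transcripts in every 1000000, corrected for length) per gene, and both were used. Deposited FPKM and normalized counts were not used. Groups came from the sample labels, and 0 columns were left unmapped.

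Estimated counts were rounded, although all member values were already whole. Genes were filtered with edgeR's filterByExpr, which left 12836 genes at 6 weeks, 12742 at 12 weeks and 12988 over all 32 libraries. Counts were scaled by TMM and tested with edgeR 4.0.16 (quasi-likelihood F test, R 4.3.3), with Benjamini-Hochberg adjustment over all genes tested and a threshold of 0.05. PFOS was compared with control in the 16 libraries of a time, and times were compared, and effects differenced, in 1 fit of 32 libraries. The SE is the log2 fold change divided by the square root of F. Alternatives were DESeq2 1.42.0, RLE scaling, no filter or a stricter one, the vial as a block, each vial left out, all 32 libraries in 1 fit and 8 libraries alone. The fit was run on simulated data with log2 changes of 1 and 0.5, each in 100 genes. It recovered 99 to 100 of the larger changes and 84 to 95 of the smaller, with 5 to 12 false calls. The called changes of the 8 genes were smaller than 0.5, and recovery at such sizes was not tested.

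Every member was named. From the pathway lists at most 4 called genes per list and comparison were named, by adjusted p, and for each member the 3 genes most correlated with it in log2(CPM + 1). A few genes that this rule would name are not reported here. The members and lists were chosen with earlier results of these data known.

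Same-numbered libraries were taken to come from 1 vial, since the labels say that each vial was divided among the groups. The titles give only replicate numbers. The reported fits had no vial term, and the vial entered as a block in an alternative. The mean correlation of deviations between same-numbered libraries was 0.055 to 0.124 at 6 weeks and 0.0294 to 0.093 between times. At 12 weeks it was -0.161 (control with 1 µM, each of its pairs below 0) to 0.154. None of 48 replicate pairs held identical values, and their counts differed by more than sampling noise (chi-square per degree of freedom 2.35 to 16.9). Member counts ranged from 533 to 4549 per library. Promoters and gene positions came from RefSeq tables of GRCh38.p14, and all 8 members matched. The deposited ID3 entry mixes a patch scaffold with the chromosome, so its RefSeq position is given.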

Additional observations from a re-analysis of the deposited data

Results flagged for a closer look

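Each of the 8 genes was examined in each of 8 groups for a library far from the other 3, which made 64 sets of 4 values, and chance gives about 1 such set in 20. Only 2 sets had one. ID1 at 12 weeks with 0.01 µM PFOS measured 154 CPM in replicate 3, against 124 to 125 CPM in the other libraries of that group. ID4 at 12 weeks with 0.1 µM PFOS measured 181 CPM in replicate 1, against 165 to 167 CPM in the others. Neither gene was called in a comparison of these groups with control, and the cause was not tested.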

How the results depend on the processing

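Of 136 pairs of gene and comparison, 19 were called, and over their 209 alternative values the call held in 181 and was lost in 28. Another 9 pairs were called in some alternative only, in 12 of 101 values. None of these 310 values turned direction. The other 108 pairs were never called; 70 of their 1226 alternative values had the other sign, the largest main value among them being 0.12 in size. At 0.1 µM and 6 weeks the count of the 8 genes called went from 3 to 0 with all 32 libraries in 1 fit (49 genes in all). At 1 µM and 6 weeks it went from 2 to 0 in that fit (5 genes in all) and to 4 with DESeq2 (129 in all). Leaving out a vial gave 0 to 4 at 0.1 µM and 0 to 3 at 1 µM, and between times 1 to 3 at 0.01 µM and 1 to 3 at 1 µM, where 3 were called each time. Counts of 0 became 1 for 0.1 against 0.01 µM at 6 weeks with DESeq2 or with the vial as a replicate block, 1 for 1 against 0.1 µM at 6 weeks with 8 libraries alone, 1 for 0.1 µM at 12 weeks with 32 or with 8 libraries, 1 for 0.1 against 0.01 µM at 12 weeks with 32 libraries, and 2 for the 1 µM difference between times with DESeq2. The replicate block changed no other call of the 8 genes. The causes were not tested.

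Over all genes, the count called was 544 at 6 weeks and 0.1 µM (22 without vial 3, 49 with all 32 libraries). It was 36 at 1 µM (5 with all 32 libraries, 129 with DESeq2, 178 without vial 2). For 0.1 against 0.01 µM it was 35 (0 with 32 libraries, 75 with DESeq2). For 1 against 0.1 µM it was 11 (1 without vial 3, 25 with DESeq2). At 12 weeks it was 136 at 0.1 µM (4 without vial 3, 540 with 32 libraries), 28 at 1 µM (8 without vial 4, 136 with 32 libraries) and 0 for 0.1 against 0.01 µM (415 with 32 libraries). It was 3903 between times at 1 µM (2498 without vial 3), and for the differences between times 27 at 0.1 µM (1 without vial 4, 142 with DESeq2) and 16 at 1 µM (1 without vial 4, 76 with DESeq2). The median log2 fold change of all genes was within 0.0149 of 0 in every setting and comparison. The members had 533 or more counts in every library. With 4 vials of 1 line and no vial term, the p-values cover only the spread between libraries of this line within groups.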
